A study of Mus musculus with 20 samples.

Results

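The livers of mice given a guide RNA against Flcn during feeding with much fat and fructose (HFHF diet) were compared with the livers of untreated mice on standard chow. The libraries were chosen by their labels, 8 with the treatment Flcn gRNA and 5 chow controls, which are 13 of the 20 liver mRNA libraries of the series. All mice were of the strain C57BL/6NTac. The gRNA group received the guide in an adeno-associated virus (AAV8), and the chow group received neither virus nor HFHF diet. The other 7 libraries, HFHF controls given vehicle (PBS), were used to divide the genes that differed from chow into those also found to differ under the diet alone and those not found to. Diet, virus and guide cannot be told apart in gRNA against chow, and the virus and the guide cannot be told apart in gRNA against HFHF control. The labels used here name no nuclease and give no guide sequence, dose, age, sex or time on diet, and they do not say that each library is a separate animal, so the spread behind the p-values may be technical.

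Folliculin, the product of Flcn, forms a complex with FNIP1 or FNIP2 that acts at the lysosome on the GTPases RagC and RagD. Through RagC and RagD it allows the kinase complex mTORC1 to phosphorylate the transcription factors TFEB and TFE3, which keeps them out of the nucleus. TFEB, TFE3 and MITF (the MiT/TFE factors) bind the sequence TCACGTG and related letters near lysosomal, autophagy and Rag genes, and loss of folliculin in liver is known to release them. An HFHF diet is a standard way to bring fat accumulation, inflammation and fibrosis to the mouse liver.

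Total estimated counts were 14131976 to 16285324 in the chow libraries and 13974379 to 19586576 in the gRNA libraries, and levels are given as CPM, that is counts scaled for library size. Hepatocyte markers were high in every library, with albumin (Alb) at 59814 ± 6944 CPM (SD, n = 5) in chow and 45179 ± 10387 CPM (SD, n = 8) in gRNA. Of 10 pancreas acinar markers 1 passed the filter on low counts, and no other reached more than 0.337 CPM in a library. On the first principal component of log2 CPM (45.3% of the variance) the gRNA libraries, at -13.6 to 21, lay between chow (-68.3 to -55.1) and HFHF control (31.8 to 52.2). On the second (17.9%) they lay at 15 to 43.8 and all other libraries at -30.4 to -10.7. One library, gRNA replicate 8, has another second number in its title than the rest, and no source used here says what it means. Without that library 5649 genes were called against chow, of which 5332 were also called with it.

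Against chow, 5819 of the 13667 genes tested had an adjusted p under 0.05 (edgeR's quasi-likelihood test, Benjamini-Hochberg), which is 42.6% and is what "called" means below. Of these 2860 were higher than chow (20.9% of the genes tested) and 2959 lower (21.7%). The share of calls that were higher was thus 49.1%, but it was 55.6% with upper-quartile scaling and 55.7% without the low-count filter, so neither direction prevailed in all settings. Changes of at least 2-fold were more often rises: 832 genes (6.09%) were at least 2-fold higher and 363 (2.66%) at least 2-fold lower. The libraries of the 2 groups did not overlap for 2458 genes (18%). The median log2 fold change over all genes was 0.00. Of the 2370 genes that the diet alone changed at least 2-fold, 913 were still changed at least 2-fold in the same direction with the gRNA. HFHF control differed from chow at 57% of the genes and gRNA differed from HFHF control at 38.6%.

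The called genes were divided by the tests of all 3 contrasts, which share libraries, so the sizes of the classes are a description. In 2756 genes (47.4% of the calls) the gRNA group differed from chow in the same direction as HFHF control and was not called against HFHF control. These are named retained, and the missed call does not show that they lay at the HFHF control level. In 1462 genes (25.1%) the gRNA group differed from chow in the direction of the diet change but had moved toward chow. In 280 (4.8%) it had moved further from chow than HFHF control. New relative to chow were 732 genes (12.6%), of which 523 were higher. They were called against chow and against HFHF control in the same direction, while HFHF control against chow was not called. That missed call does not show that diet left them unchanged. Another 84 genes (1.4%) had moved past chow, to the side opposite to the diet change. The median size of the log2 change against chow was 0.49 for retained, 0.60 for partly moved back, 1.11 for moved further, 0.44 for new and 0.34 for past chow. The other 505 calls met none of these rules. A further 2174 genes that the diet had changed were called against HFHF control and no longer against chow.

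**Figure D1:**
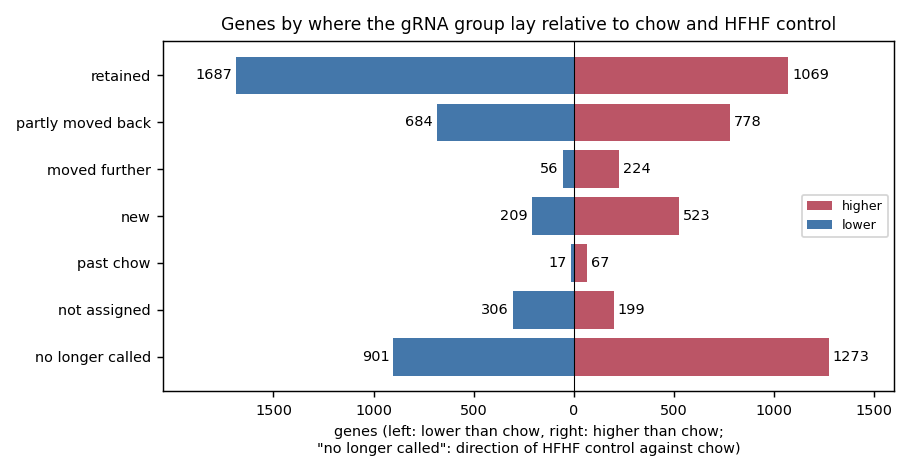
Number of genes in each class, with genes higher than chow to the right and lower to the left; for genes no longer called against chow the direction is that of HFHF control. Retained genes are the largest group and lie mostly on the lower side (1687 of 2756), while new and moved further genes lie mostly on the higher side (523 and 224).

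Flcn itself (ENSMUSG00000032633, on the minus strand of GRCm38 chromosome 11, from 59791408 to 59810016) had counts in all 20 libraries. The chow libraries held 32.4, 22.5, 18.6, 20.3 and 17.3 CPM. The gRNA libraries held 14.1 to 22 CPM (median 18), and HFHF control 17.8 to 26.4 CPM (median 19.9). The groups overlapped, and the difference from chow was -0.32 on the log2 scale (SE 0.13, adjusted p = 0.05, just under the threshold). An exact two-sided permutation test of mean log2 CPM over 1287 regroupings gave p = 0.0855, and without chow replicate 1 the difference was -0.12 (adjusted p = 0.42). Where the guide lies in the gene is not stated in the labels, and whether the gene was edited was not tested.

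Of the 14 tested genes of the folliculin complex, the Rag and Ragulator proteins and the MiT/TFE factors, 8 were higher than chow, 2 lower and 4 not called, with a median of 0.35. Rragd, which encodes RagD, was at 1.79 to 2.12 CPM in chow (median 1.97), 7.26 to 18.9 CPM in HFHF control (median 14) and 29.3 to 74.8 CPM in gRNA (median 49.5). No library of one group entered the range of another, and Rragd rose against chow by a log2 fold change of 4.71 (SE 0.32, adjusted p = 3.00e-09), beyond the diet change of 2.76. Fnip2, a folliculin partner, was new relative to chow. It held 29.3, 30.7, 28.1, 25.6 and 26 CPM in chow, 22.2 to 39 CPM in HFHF control and 67.3 to 209 CPM in gRNA (median 117), a log2 fold change of 2.15 (SE 0.26, adjusted p = 3.42e-06) against chow. Fnip1 (0.48, SE 0.09) and Rragc, which encodes RagC (0.68, SE 0.08), rose less. Tfe3 fell by 0.33 (SE 0.10, adjusted p = 0.00923) and Mitf fell by 0.37 (SE 0.14, adjusted p = 0.0307; not called in 9 of 25 alternatives, among them those without any 1 of chow replicates 3 and 5 and gRNA replicates 3, 5, 6 and 8), while Tfeb was at 0.08 (95% interval -0.21 to 0.36) and not called.

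Genes of the lysosome rose with them. Lysosomes are acidified by the v-ATPase, a proton pump of many subunits, and hold the hydrolases that break down lipid, protein and sugar chains. Of 17 v-ATPase genes 16 were higher than chow and none was lower, with a median of 0.61, against 0.36 for the diet alone. In 11 of the 17 the gRNA group was higher than both other groups, and in 14 every gRNA library lay above every chow library. Of 25 known MiT/TFE targets 20 were higher (median 0.68) and 1, Flcn itself, lower. Of 47 lysosomal hydrolases and membrane proteins 31 were higher (median 0.44) and 2 lower, the iduronate sulfatase gene Ids and the membrane protein gene Scarb2, both at -0.19. Neither Flcn among the targets nor these 2 kept the call in every alternative. The summed level of the 47 was 4502 to 5113 CPM in chow, 5359 to 6194 CPM in HFHF control and 6020 to 7815 CPM in gRNA, so the gRNA and chow libraries did not overlap. Of 31 autophagy genes 12 were higher, 5 lower and 14 not called (median 0.05). Vps18, a subunit of the tethering complexes that deliver cargo to lysosomes, was new (0.55, SE 0.09), while the kinase gene Ulk2 (-0.54, SE 0.09), Atg9a (-0.44, SE 0.07), Atg16l1 (-0.34, SE 0.07), Atg13 (-0.27, SE 0.10) and Atg4b (-0.18, SE 0.05) were below chow as under diet. Of these 5, 3 were called without the low-count filter and without chow replicate 2 or 5, where Atg13 and Atg4b were not.

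Individual lysosomal genes differed in how they came to be above chow. Hexa, a hydrolase of glycolipids, had moved further. It held 31.6, 33.1, 29, 29.9 and 29.4 CPM in chow, 52.2 to 71.7 CPM in HFHF control (median 58.8) and 69.1 to 116 CPM in gRNA (median 98.5). The gRNA and HFHF control ranges overlapped slightly, and both lay above chow. The log2 fold change against chow was 1.63 (SE 0.11, adjusted p = 2.11e-10), of which the diet alone gave 1.02. Ctsa (cathepsin A) was new: chow libraries held 90.7 to 116 CPM (median 103), HFHF control 108 to 137 CPM (median 117) and gRNA 159 to 278 CPM (median 208), a log2 fold change of 1.03 (SE 0.12, adjusted p = 5.32e-07). The sialidase Neu1 (0.94, SE 0.14) and the lysosomal calcium channel Mcoln1 (0.60, SE 0.11) were also new. Ctsd (cathepsin D) was retained, at 229 ± 6.28 CPM in chow, 395 ± 34.0 CPM in HFHF control and 436 ± 48.2 CPM in gRNA (log2 fold change 0.93, SE 0.08). The v-ATPase subunit genes Atp6v1e1, Atp6v0c and Atp6v0b, those with the smallest p in that list, had moved further, with 0.85 (SE 0.08), 0.70 (SE 0.07) and 0.72 (SE 0.07) against chow.

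Promoter sequences were read for the genes that moved with this group, since the MiT/TFE factors bind a known short motif. The motif TCACGTG was searched on both strands in the 250 bases before to 50 bases after the start of each gene (RefSeq, GRCm38.p6), and 10480 tested genes had such an entry. It was found in 6.86% of them. It was found in 15.2% of the promoters of genes moved further and higher (26 of 171) and in 11.3% of new and higher genes (44 of 388). It was found in 4.43% of genes still higher but partly moved back and in 8.87% of those retained higher. By list it was found for 4 of 11 v-ATPase genes, 11 of 37 lysosomal genes, 6 of 21 MiT/TFE targets and 0 of 24 extracellular matrix genes. It was also found for 3 of 17 genes of cholesterol synthesis and uptake, which were lower than chow, and for 3 of 15 clock genes. A match is a description of the letters and not evidence of binding, and Fnip2, Rragd, Hexa, Fabp3 and Cox8b have no match in this window. The promoters below hold 1 or 2 matches each and belong to a calcium channel, a hydrolase, a proton pump subunit and a folliculin partner that were each higher than chow. Ctsa has 2 entries, and the other one, upstream of that printed, holds no match. Capitals mark the matches.
Mcoln1, chr8:3500269-3500568, plus strand: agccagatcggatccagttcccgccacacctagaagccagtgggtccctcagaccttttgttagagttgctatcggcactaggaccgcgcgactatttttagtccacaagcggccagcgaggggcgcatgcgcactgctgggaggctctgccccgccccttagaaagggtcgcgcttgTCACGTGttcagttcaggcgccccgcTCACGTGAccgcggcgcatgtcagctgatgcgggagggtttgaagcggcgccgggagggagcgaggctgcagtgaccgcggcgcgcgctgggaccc
Ctsa, chr2:164833523-164833822, plus strand: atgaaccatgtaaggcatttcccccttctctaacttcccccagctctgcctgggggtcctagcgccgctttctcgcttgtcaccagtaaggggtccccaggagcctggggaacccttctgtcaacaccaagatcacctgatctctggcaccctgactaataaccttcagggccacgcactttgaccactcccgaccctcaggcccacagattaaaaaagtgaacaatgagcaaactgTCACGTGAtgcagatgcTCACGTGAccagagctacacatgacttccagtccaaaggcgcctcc
Atp6v0b, chr4:117887280-117887579, minus strand: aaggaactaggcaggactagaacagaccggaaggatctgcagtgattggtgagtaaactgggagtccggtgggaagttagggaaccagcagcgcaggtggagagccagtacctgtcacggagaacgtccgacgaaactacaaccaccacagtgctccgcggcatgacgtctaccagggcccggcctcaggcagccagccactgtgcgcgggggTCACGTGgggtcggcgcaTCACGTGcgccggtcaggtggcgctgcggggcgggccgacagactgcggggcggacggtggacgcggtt
Fnip1, chr11:54437929-54438228, plus strand: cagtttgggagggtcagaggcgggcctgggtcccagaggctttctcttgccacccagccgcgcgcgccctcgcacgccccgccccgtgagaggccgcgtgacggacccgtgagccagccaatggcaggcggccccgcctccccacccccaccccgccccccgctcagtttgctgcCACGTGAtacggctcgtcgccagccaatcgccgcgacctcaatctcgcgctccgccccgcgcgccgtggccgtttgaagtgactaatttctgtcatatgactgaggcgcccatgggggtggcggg
The matches nearest the start lie 46 bases (Mcoln1), 19 bases (Atp6v0b) and 75 bases (Fnip1) before it.

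Several genes normally high in heart and skeletal muscle were far above chow. Fabp3, the heart fatty acid-binding protein, held 0, 0, 0, 0.0743 and 0.0778 CPM in chow and 0.303 to 1.01 CPM in HFHF control. It held 31 to 46.2 CPM in gRNA (median 37.6), far outside both other groups. With 2 counts over the chow libraries against 4891 over gRNA, the ratio of mean levels was 1286 (95% counting interval 356 to 10616). Cox8b, the heart and muscle form of a cytochrome oxidase subunit, was new: it held 0 to 0.156 CPM in chow, 0 to 0.183 CPM in HFHF control and 15.3 to 90 CPM in gRNA (median 24.6), a log2 fold change against chow of 8.43 (SE 0.76, adjusted p = 1.50e-07). Cox7a1 (3.00, SE 0.53), Ldhb (2.39, SE 0.22) and the uncoupling protein gene Ucp3 (2 counts in chow, ratio 52.3, counting interval 14.5 to 432) were new as well. Cox7a1 held 0.294 to 0.664 CPM in chow and 0.729 to 1.19 CPM in HFHF control, without overlap, although that contrast was not called. The adenine nucleotide carrier gene Slc25a4 was retained (1.88, SE 0.17), and the remaining 4 tested members of that list were not called. The other 16 members, among them the myosin genes Myh1, Myh2, Myh4 and Myh7 and the actin gene Acta1, did not pass the filter on low counts, and none of them exceeded 1.66 CPM in any library.

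Other genes that had moved further included Sptlc3, a subunit of serine palmitoyltransferase, the enzyme that begins sphingolipid synthesis. It had 1 count in chow and 1639 in gRNA (ratio 862, counting interval 155 to 34033). Cfap44, a cilium and flagellum protein gene, had 0 counts in chow and was at 1.72 to 7.79 CPM in gRNA, at least 97.3-fold higher when set against 3 counts over the chow group. Nupr1, a stress-response regulator, rose from 0.222 ± 0.148 CPM in chow to 3.97 ± 0.977 CPM in HFHF control and 18.3 ± 6.50 CPM in gRNA (log2 fold change against chow 6.33, SE 0.37). Plin4, a lipid droplet coat protein gene, reached 117 to 223 CPM against 5.68 to 16.6 CPM in chow (3.91, SE 0.25). The pyruvate kinase gene Pklr (2.01, SE 0.19) and the glycogen synthase gene Gys2 (0.79, SE 0.10) were also further above chow than in HFHF control.

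New relative to chow were also many genes of the respiratory chain. The mitochondrial inner membrane holds complexes that pass electrons to oxygen, and PGC-1 alpha (Ppargc1a) and ERR alpha (Esrra) are known activators of their genes. Of 32 tested genes of respiration and its regulation 21 were higher than chow, 2 lower and 9 not called, with a median of 0.29. In HFHF control 2 of the 32 were higher than chow and 8 lower, with a median of -0.14. Of the 21 genes, 15 were new and 4 had moved past chow (Atp5a1, Atp5b, Atp5c1 and Ndufs1). The 2 lower genes encode the transcription factors NRF1 (Nrf1, -0.28, SE 0.11) and GABPA (Gabpa, -0.22, SE 0.08), and 1 or both missed the threshold under most other settings. Ppargc1a held 16.5, 9.56, 10.5, 8.17 and 7.7 CPM in chow, 5 to 10.9 CPM in HFHF control and 14.4 to 34.9 CPM in gRNA (median 20.2). The highest chow library lay inside the gRNA range, and the log2 fold change was 1.05 (SE 0.23, adjusted p = 0.00101). Esrra rose by 0.49 (SE 0.12), Cycs (cytochrome c) by 0.55 (SE 0.10), the complex II gene Sdhd by 0.44 (SE 0.09) and the complex III gene Uqcrfs1 by 0.35 (SE 0.07). Atp5a1, a subunit of ATP synthase, was lower than chow under diet (-0.24) and higher with the gRNA (0.34, SE 0.08, adjusted p = 0.00103). It held 687 to 780 CPM in chow and 763 to 1039 CPM in gRNA. In 6 of the 32 genes every gRNA library lay above every chow library, where the libraries of 18% of all genes did not overlap in either direction.

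**Figure D2:**
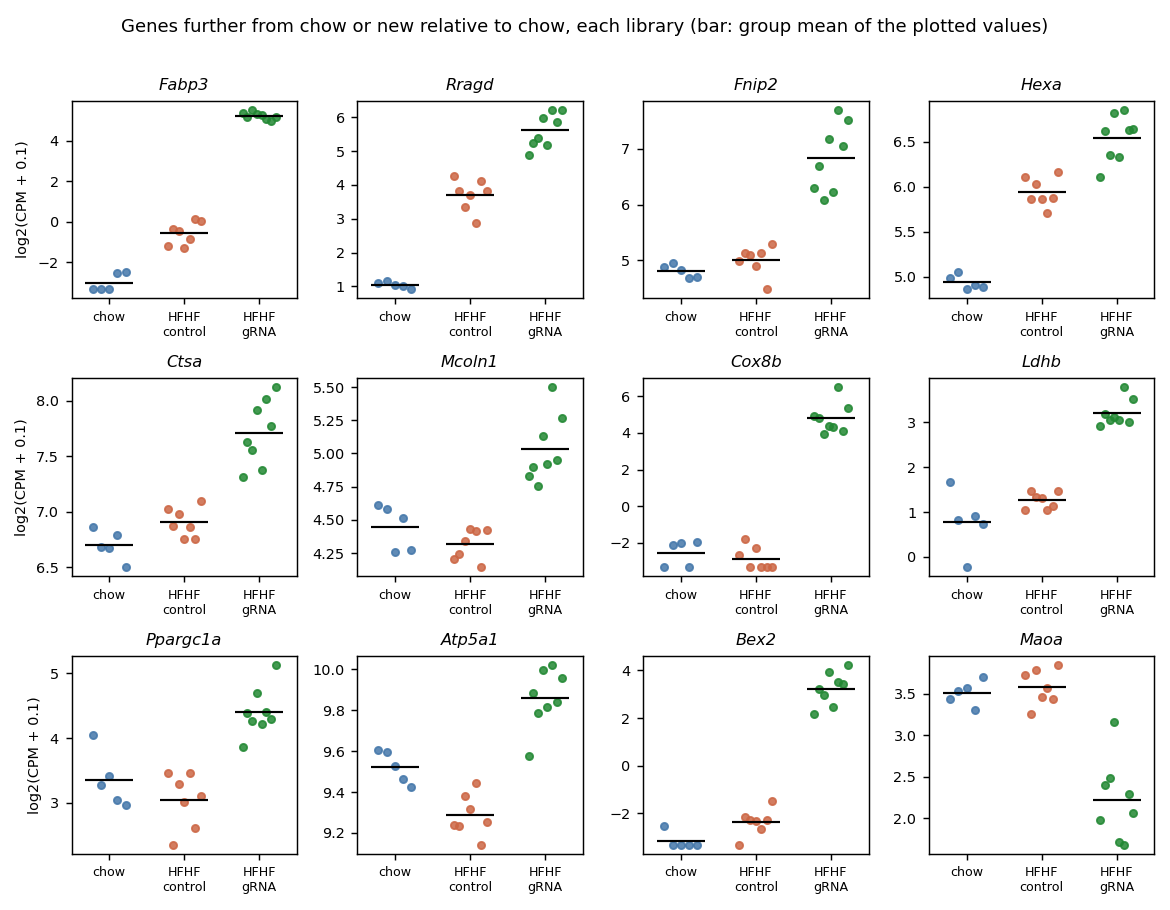
Level of 12 genes in each library as log2(CPM + 0.1), 1 point a library, with the mean of each group as a bar; each panel has its own scale. Fabp3, Cox8b and Bex2 lie near the floor in chow and HFHF control, Hexa and Rragd step up from chow to HFHF control to gRNA, and Atp5a1 and Mcoln1 are not above chow in HFHF control.

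The other new genes with the largest changes do not belong to 1 pathway. Bex2 had 1 count in chow and was at 4.42 to 18.6 CPM in gRNA (ratio 700, counting interval 126 to 27638). Anxa8, an annexin, rose from 0.0737 ± 0.0527 CPM to 14.8 ± 10.6 CPM (7.51, SE 0.80). In HFHF control Anxa8 held 0.183 to 0.876 CPM, above all chow libraries (0 to 0.149 CPM), although that contrast was not called. Mogat2, an enzyme of triglyceride synthesis best known from intestine, rose from 0.0717 ± 0.0472 CPM to 6.93 ± 5.07 CPM (6.43, SE 0.72). In HFHF control Mogat2 held 0.112 to 0.671 CPM. Of the new genes that fell, Unc13b, a vesicle priming protein gene, held 6.24 to 20.5 CPM in chow, 9.22 to 22 CPM in HFHF control and 0.983 to 4.11 CPM in gRNA (-2.11, SE 0.34). Maoa (monoamine oxidase A) fell from 11.3 ± 1.18 to 4.81 ± 1.84 CPM (-1.24, SE 0.18), and Nrp2 (neuropilin 2) from 20.3 ± 2.17 to 9.30 ± 2.33 CPM (-1.13, SE 0.15). The noncoding RNA Ctcflos fell by 1.09 (SE 0.15). Asns, the asparagine synthetase gene and a target of the stress factor ATF4, fell from 1.72 ± 0.862 to 0.300 ± 0.109 CPM (-2.45, SE 0.34). Of the 19 tested ATF4 and amino acid stress genes 6 were higher, 5 lower and 8 not called. Among all genes tested 20.9% were higher and 21.7% lower. The lower ones beside Asns were Cth (-1.69, SE 0.19), Atf4 (-0.67, SE 0.11), Ddit4 (-0.75, SE 0.29) and Slc7a5 (-0.68, SE 0.24), and the count was 3 without chow replicate 1 or gRNA replicate 8 and 2 with the gRNA and chow libraries alone.

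Among immune genes, those of B cells were new. Ighm, the immunoglobulin M heavy chain gene, held 8.9, 6.31, 7.49, 16.2 and 17.9 CPM in chow, 7.46 to 22.6 CPM in HFHF control and 19.9 to 86.3 CPM in gRNA (median 29). All gRNA libraries lay above all chow libraries (1.75, SE 0.44, adjusted p = 0.00374). The B cell surface genes Cd79a (0.76, SE 0.28) and Ms4a1 (0.78, SE 0.30) were called too. They are low genes, with means of 0.956 and 1.08 CPM in chow and 1.62 and 1.86 CPM in gRNA. Of the 17 tested lymphocyte markers 10 were higher than chow and none was lower (median 0.89, against 1.70 for the diet alone). Gzmb (granzyme B), of cytotoxic cells, was among them and was retained (2.29, SE 0.55). That count was 6 without any 1 of chow replicates 1, 2, 3 and 5 or gRNA replicates 2 and 5. In bulk liver, more cells of a type and more RNA per cell cannot be told apart.

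Cholesterol synthesis, the pathway whose genes SREBP2 activates when cells lack sterol, remained far below chow. All 25 tested genes of cholesterol synthesis and uptake were lower than chow, with a median of -1.88. In 24 of the 25 every gRNA library lay below every chow library. The diet alone had lowered 24 of the 25 (median -1.77), and 17 were retained. Sqle (squalene epoxidase; GRCm38 chromosome 15, 59315077 to 59331192, plus strand) held 70.5, 56.5, 68.6, 90.8 and 92.6 CPM in chow, 0.362 to 3.17 CPM in HFHF control and 0.469 to 2.04 CPM in gRNA (median 0.96). The gRNA and HFHF control ranges overlapped, and against chow the log2 fold change was -6.16 (SE 0.30, adjusted p = 2.91e-11). Idi1 fell from 310 ± 66.6 to 16.9 ± 4.43 CPM (-4.20, SE 0.16) and Nsdhl from 81.2 ± 7.19 to 13.2 ± 2.27 CPM (-2.62, SE 0.10). Srebf2, which encodes SREBP2, was at 39.2 to 48.8 CPM in chow, 21.5 to 27 CPM in HFHF control and 18.3 to 25.3 CPM in gRNA (-1.0, SE 0.07), with no overlap with chow.

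A few genes of the pathway had moved within the low range. Msmo1 was slightly nearer to chow than in HFHF control (32.4 ± 3.15 against 26.7 ± 3.58 CPM, with 254 ± 38.9 CPM in chow). Cyp51, the sterol demethylase gene, had moved further from chow. It held 173 to 234 CPM in chow (median 189), 20.9 to 33.5 CPM in HFHF control (median 24.6) and 16.6 to 27.7 CPM in gRNA (median 18.1), a log2 fold change of -3.35 (SE 0.12, adjusted p = 2.20e-15). The gRNA range overlapped that of HFHF control and lay far below chow. The sterol regulatory element TCACNCCAC, searched on both strands, was in 1.42% of promoters and in 1 of the 17 pathway promoters available, that of Hmgcs1, the synthase that supplies the pathway. Hmgcs1 was at 619 ± 113 CPM in chow and 168 ± 26.8 CPM in gRNA (-1.88, SE 0.11). Capitals mark the match, 137 bases before the start, in this promoter (RefSeq, GRCm38.p6).
Hmgcs1, chr13:119690101-119690400, plus strand: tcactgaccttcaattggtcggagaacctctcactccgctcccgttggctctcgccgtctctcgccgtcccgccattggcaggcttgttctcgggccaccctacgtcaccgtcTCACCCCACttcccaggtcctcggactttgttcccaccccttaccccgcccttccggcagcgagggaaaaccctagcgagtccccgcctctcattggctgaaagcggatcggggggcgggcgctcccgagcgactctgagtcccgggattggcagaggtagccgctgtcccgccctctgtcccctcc

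**Figure D3:**
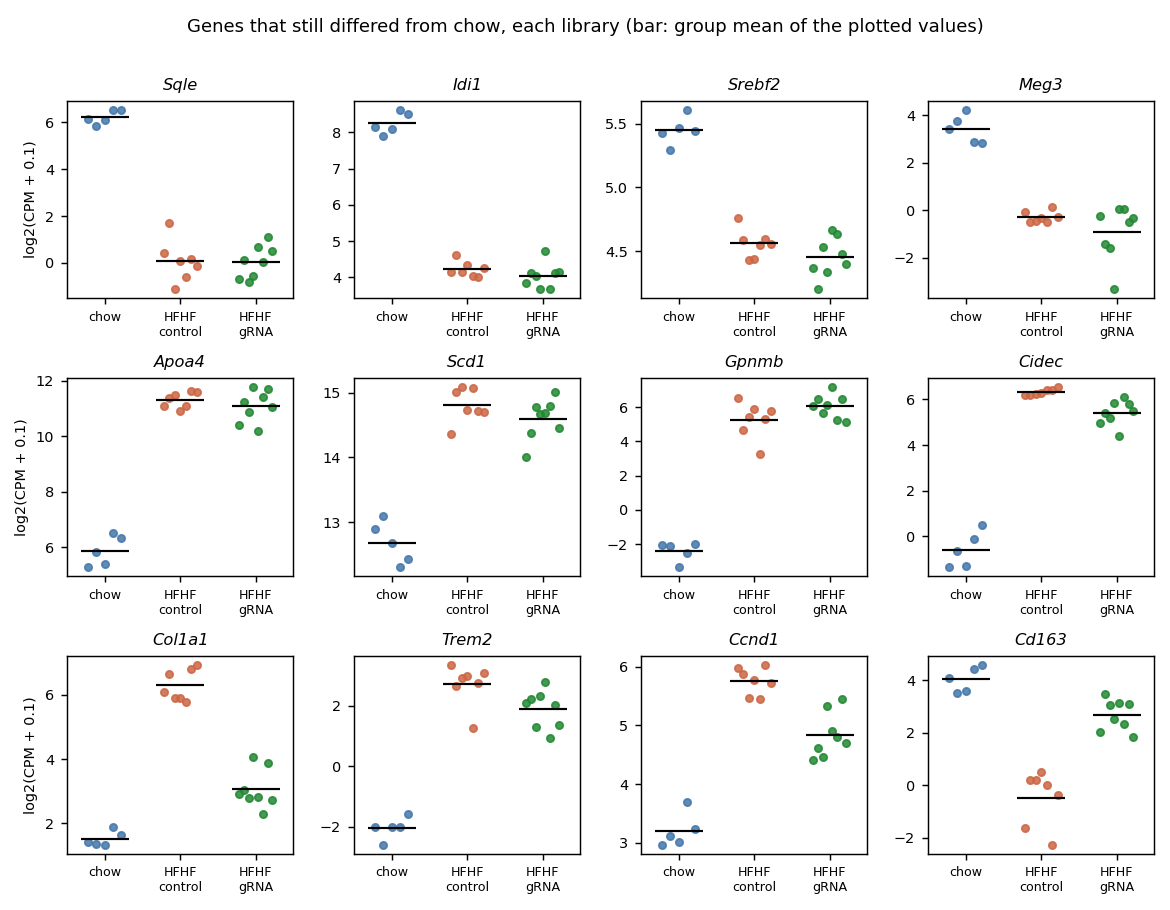
Level of 12 genes that still differed from chow in each library, as log2(CPM + 0.1), 1 point a library, with the mean of each group as a bar; each panel has its own scale. With the gRNA, Sqle, Idi1, Srebf2, Meg3, Apoa4, Scd1 and Gpnmb overlap HFHF control and were not called against it. The group means of Cidec, Col1a1, Trem2, Ccnd1 and Cd163 lie between HFHF control and chow.

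Genes of stored fat were mostly above chow. Of 27 tested lipid droplet and steatosis genes 21 were higher than chow and none was lower, with a median of 0.98 against 1.09 for the diet alone. Of the 21, 10 were retained, 6 partly moved back and 3 moved further, while Mogat2 was new and Dgat2 had moved past chow. Apoa4, an apolipoprotein that rises with liver fat, held 39.1, 56.5, 41.8, 92 and 81 CPM in chow, 1912 to 3160 CPM in HFHF control and 1168 to 3479 CPM in gRNA (median 2243). It was retained, with a log2 fold change of 5.21 (SE 0.33, adjusted p = 7.68e-10). Scd1, the stearoyl-CoA desaturase of fatty acid synthesis, was retained at 25270 ± 5133 CPM against 6703 ± 1521 CPM in chow (1.91, SE 0.17). Cidec and Cidea, droplet fusion proteins, had moved part of the way back. Cidec was at 0.294 to 1.32 CPM in chow, 72.2 to 92.6 CPM in HFHF control and 20.7 to 68.6 CPM in gRNA (6.09, SE 0.36), with no overlap of the 3 groups. Cidea fell from 48.4 ± 21.2 CPM in HFHF control to 10.5 ± 6.25 CPM, still above 0.160 ± 0.0565 CPM in chow (5.96, SE 0.87). Of 23 lipogenesis genes 11 were higher, 3 lower and 9 not called (median 0.58). The 3 lower ones were Slc25a1 (-0.38, SE 0.07), Fads1 (-0.32, SE 0.11) and Acss2, the acetyl-CoA synthetase gene (212 ± 62.4 CPM in chow, 76.1 ± 12.8 CPM in gRNA, -1.48, SE 0.16).

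Fatty acid oxidation genes were higher than chow in 19 of 34 cases and lower in 1 (median 0.43, against 0.07 for the diet alone). The lower one was Acaa2, at -0.18, which was not called in 13 of 25 alternatives, among them those without any 1 chow library or any 1 of gRNA replicates 1, 3, 5, 7 and 8. Hadhb, a subunit of the mitochondrial trifunctional protein, was at 177 to 188 CPM in chow, 200 to 235 CPM in HFHF control and 232 to 309 CPM in gRNA (0.60, SE 0.07). Bdh1, an enzyme of ketone bodies, had moved further (0.68, SE 0.08). Vnn1, a PPARA target, was at 36.1 ± 13.5 CPM in chow and 152 ± 37.0 CPM in gRNA (2.07, SE 0.22). Of 26 genes of fructose and glucose handling 15 were higher (median 0.41). The 2 lower ones were Pck1 (-1.21, SE 0.27) and G6pc (-1.19, SE 0.40), enzymes of glucose output, of which 1 was called without chow replicate 1. Gpi1, glucose-6-phosphate isomerase, was retained at 189 ± 31.7 CPM against 91.4 ± 3.95 CPM in chow (1.04, SE 0.11).

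Among retained genes that met the naming rule the largest rise was that of Gpnmb, a membrane glycoprotein of lipid-laden macrophages and a known MiT/TFE target. It held 0.147, 0.133, 0, 0.0743 and 0.156 CPM in chow, 9.61 to 90.7 CPM in HFHF control (median 42.8) and 35.5 to 142 CPM in gRNA (median 67.8). The log2 fold change against chow was 9.36 (SE 0.86, adjusted p = 2.50e-07), and HFHF control and gRNA overlapped. Cd63, a tetraspanin of late endosomes and lysosomes, was at 1.71 to 2.38 CPM in chow and 32 to 104 CPM in gRNA (4.84, SE 0.36). The class I-like gene H2-M2 rose from 0.119 ± 0.0890 to 4.96 ± 2.24 CPM (5.31, SE 0.63). On the lower side Meg3 and Rian, noncoding RNAs of the same imprinted cluster, stayed low. Meg3 held 10.7, 13.4, 18.8, 7.13 and 7.08 CPM in chow, 0.61 to 1.01 CPM in HFHF control and 0 to 0.95 CPM in gRNA (-4.35, SE 0.33, adjusted p = 3.51e-09). Rian fell by 4.0 (SE 0.34). Of the genes partly moved back, Ly6d, a surface protein gene, was at 0.306 ± 0.104, 99.7 ± 37.1 and 39.4 ± 24.9 CPM in chow, HFHF control and gRNA (6.96 against chow, SE 0.73), and Ntrk2, a neurotrophin receptor gene, at 0.673 ± 0.255, 41.1 ± 11.8 and 24.0 ± 8.10 CPM (5.14, SE 0.38). On the lower side, the receptor gene Adgrf1 was at 9.59 ± 3.86 CPM in chow, 0.0632 ± 0.0396 CPM in HFHF control and 0.339 ± 0.493 CPM in gRNA (-4.81, SE 0.46). Tbx3os1, a noncoding RNA antisense to Tbx3, had moved further (-2.35, SE 0.30), and since no source here says that the counting used strand, its reads cannot be told apart from those of Tbx3.

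Other markers of macrophages that enter a fatty liver had moved part of the way back but not to chow. Of 17 markers of lipid-associated and monocyte-derived macrophages 14 were higher than chow and none was lower. Their median was 1.29, against 3.18 for the diet alone, and 13 of the 14 were partly moved back. Their summed level was 64.8 to 134 CPM in chow, 364 to 870 CPM in HFHF control and 192 to 443 CPM in gRNA. Trem2, a lipid receptor of these cells, held 0.0664 to 0.233 CPM in chow, 2.29 to 10 CPM in HFHF control and 1.81 to 6.78 CPM in gRNA (4.64, SE 0.53). Lgals3 (galectin 3) was at 2.87 ± 0.698, 57.8 ± 20.3 and 20.3 ± 4.64 CPM in chow, HFHF control and gRNA (2.82 against chow, SE 0.30). Of 16 markers of the resident macrophages, Kupffer cells, 5 were higher, 1 lower and 10 not called. The lower one was Cd163, the haemoglobin scavenger receptor, with 11.4 to 23.7 CPM in chow, 0.107 to 1.31 CPM in HFHF control and 3.44 to 11 CPM in gRNA (-1.31, SE 0.29, adjusted p = 0.00141). Among the higher ones Cd68 (1.91, SE 0.24) and Cd5l (1.21, SE 0.30) were retained, the complement genes C1qb (0.54, SE 0.19) and C1qc (0.60, SE 0.20) had moved part of the way back, and Slc40a1, the iron exporter, was new (0.63, SE 0.14).

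Antigen presentation and granulocyte genes lay nearer to chow. Of 10 MHC class II and dendritic cell genes 2 were called, Ciita (0.79, SE 0.22) and H2-DMb1 (0.97, SE 0.34), while the diet alone had raised all 10. The count was 1 without chow replicate 2 or 3, 4 without chow replicate 4 and 5 without gRNA replicate 6. Their summed level was 66.6 to 137 CPM in chow, 386 to 545 CPM in HFHF control and 78 to 218 CPM in gRNA. Of 6 tested neutrophil markers 1 was called, Lcn2 (lipocalin 2), also made by stressed hepatocytes, at 5.64 ± 6.24 CPM in chow and 23.4 ± 14.1 CPM in gRNA (2.06, SE 0.55). In 8 of 25 alternatives 2 were called: with DESeq2, with the gRNA and chow libraries alone, and without any 1 of chow replicates 3 and 5, HFHF control replicate 6 and gRNA replicates 1, 2 and 7. Of 28 interferon-stimulated genes 6 were higher, 3 lower and 19 not called (median 0.10, against 0.75 for the diet). Over all genes tested 20.9% were higher and 21.7% lower, so the count of higher ones does not set this list apart. Usp18, a brake on interferon signalling, had moved further (1.53, SE 0.18), and the antiviral tether Bst2 was retained (0.86, SE 0.12). The lower ones were Mx2 (-1.03, SE 0.15), Oasl1 (-0.69, SE 0.17) and Stat2 (-0.45, SE 0.09). Without chow replicate 4 there were 10 higher, and without gRNA replicate 2 there were 5 lower. Of 18 chemokine genes 7 were higher and 4 lower, with a median of 0.71 against 2.04 for the diet, and 8 were partly moved back. The 4 lower ones were Cxcl13, which attracts B cells (-2.50, SE 0.40), Ccl9 (-0.93, SE 0.15), Cxcl1 (-0.85, SE 0.30) and Cxcl12 (-0.69, SE 0.12).

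Most matrix genes had moved part of the way back and were still above chow one by one, while their summed level, dominated by Fn1, was not. Fibrillar collagens and their cross-linking enzymes are made in liver mainly by activated stellate cells. Of 38 extracellular matrix genes 24 were higher than chow, 3 lower and 11 not called. Their median was 0.57, against 2.11 for the diet alone, with 24 partly moved back and 10 no longer called. The summed level of the 38, in which the most abundant genes weigh most, was 1831 to 2330 CPM in chow (median 1997), 2351 to 2970 CPM in HFHF control (median 2756) and 1264 to 2298 CPM in gRNA (median 1926). Fn1 alone held 1353 to 1809 CPM in chow, 1003 to 1171 CPM in HFHF control and 672 to 1573 CPM in gRNA. It made up most of the sum in every chow and gRNA library, so the sum does not speak for the other matrix genes. Col1a1 (GRCm38 chromosome 11, 94936224 to 94953042, plus strand) held 2.57, 2.46, 2.42, 3.57 and 3.03 CPM in chow, 54.8 to 122 CPM in HFHF control (median 68.5) and 4.81 to 16.8 CPM in gRNA (median 7.23). The 3 groups did not overlap, and the log2 fold change against chow was 1.68 (SE 0.36, adjusted p = 0.00103), where the diet alone gave 4.87. Col1a2 (1.12, SE 0.23), Col3a1 (1.11, SE 0.23) and the proteoglycan gene Dcn (decorin; 0.57, SE 0.10) also remained above chow. Col12a1 kept more of its rise, at 6.60 ± 1.76 CPM in gRNA, 9.64 ± 2.70 CPM in HFHF control and 1.94 ± 0.429 CPM in chow (1.76, SE 0.23). Timp1, an inhibitor of matrix proteases, had 0 counts in chow and 48 in gRNA, at least 8.41-fold higher when set against 3 counts over the chow group. The proteoglycan gene Lum was no longer called (0.39, 95% interval -0.16 to 0.93), nor was the basement membrane collagen gene Col4a1 (0.17, 95% interval -0.09 to 0.43). Col15a1 (-0.62, SE 0.23) and Mmp14, a membrane-bound protease gene (-0.32, SE 0.10), lay below chow after a rise under diet, and the third lower gene was Fn1 (fibronectin), at -0.34 (SE 0.13). The count of lower matrix genes was 0 without chow replicate 4, and 1 without chow replicate 2, chow replicate 3 or gRNA replicate 2. Of 16 stellate cell and myofibroblast markers 7 were higher and none was lower (median 0.34, against 1.08 for the diet), led by Colec11 (0.68, SE 0.10), Rgs5 (0.65, SE 0.12) and Cygb (0.69, SE 0.17).

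**Figure D4:**
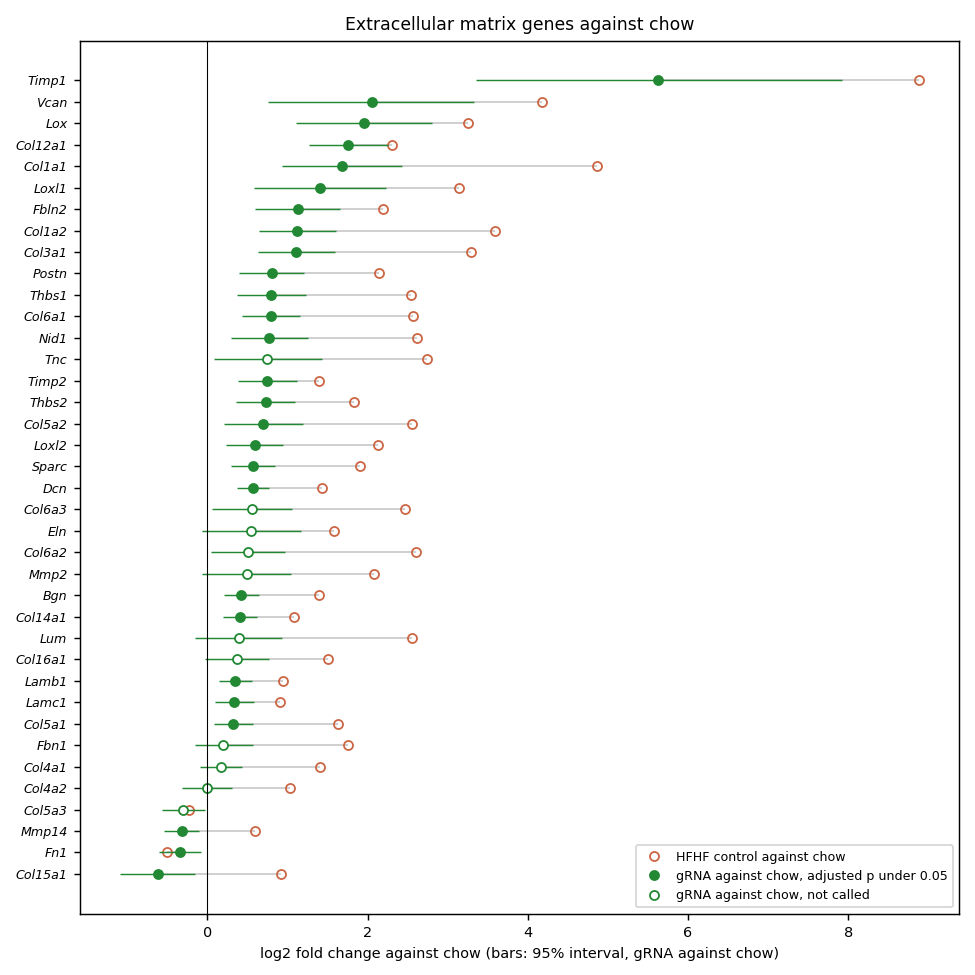
Log2 fold change against chow of the 38 extracellular matrix genes, for HFHF control (open circles in orange) and gRNA (green, with 95% intervals; filled where adjusted p is under 0.05). The gRNA values lie to the left of the diet values in nearly all genes and mostly between 0 and 2; the fitted value of Timp1 rests on 0 counts in chow and is no bound.

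Proliferation and damage genes remained raised in part. Of 27 cell cycle genes 18 were higher than chow and none was lower (median 0.71, against 1.81 for the diet), and 13 were partly moved back. Ccnd1 (cyclin D1) held 7.72 to 12.8 CPM in chow, 43.6 to 65.1 CPM in HFHF control and 21.2 to 43.7 CPM in gRNA (1.66, SE 0.19, adjusted p = 1.18e-06), so all gRNA libraries stayed above chow. Mki67, the proliferation marker Ki-67, was at 2.08 ± 0.833 CPM in chow and 4.55 ± 1.83 CPM in gRNA (1.12, SE 0.29). Ccne1 (cyclin E1; 2.02, SE 0.35) was retained and Mcm3, of the replicative helicase (0.69, SE 0.15), partly moved back. Of 18 p53 targets 10 were higher and 2 lower (median 0.68), the latter being Trp53inp1 (-0.97, SE 0.25) and Sesn1 (-0.41, SE 0.12). Without chow replicate 1 the count of lower targets was 1. Eda2r, a death receptor, was at 0.301 ± 0.141 CPM in chow and 6.06 ± 3.36 CPM in gRNA (4.28, SE 0.51), while Ccng1 (cyclin G1) rose by 0.99 (SE 0.16) and the pro-apoptotic gene Bax by 0.78 (SE 0.15). Of 22 NRF2 targets and glutathione transferases 7 were higher, 4 lower and 11 not called. The shares over all genes tested were 20.9% higher and 21.7% lower, so the count of lower ones does not set this list apart. The lower ones were Osgin1 (-1.45, SE 0.26), Gstp1 (-0.86, SE 0.22), Gsta4 (-0.59, SE 0.18) and Txnrd1 (-0.22, SE 0.08), of which 2 were called without chow replicate 2. Nfe2l2, which encodes NRF2 itself, was retained (0.72, SE 0.11), and the sulfiredoxin gene Srxn1 partly moved back (0.83, SE 0.13). Hmox1 (heme oxygenase 1) was retained at 25.3 ± 3.67 CPM against 10.2 ± 1.49 CPM in chow (1.31, SE 0.13). Of 20 unfolded protein response chaperone genes 9 were lower and none higher (median -0.35), among them Pdia4 (-0.53, SE 0.17), Pdia3 (-0.40, SE 0.12) and Edem1 (-0.34, SE 0.11). That count was 0 without chow replicate 5, 1 without chow replicate 4 and 4 or 5 without any 1 of gRNA replicates 2, 3, 6, 7 and 8.

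Genes of the hepatocyte itself stayed below chow in many cases. Of 25 hepatocyte secreted and identity genes 13 were lower and none higher (median -0.37), and Alb was retained (-0.40, SE 0.15). Serpina1a (alpha-1 antitrypsin) held 4504 to 4924 CPM in chow, 1766 to 2034 CPM in HFHF control and 1577 to 3395 CPM in gRNA (-0.93, SE 0.14, adjusted p = 2.08e-05). The gRNA libraries reached above the HFHF control range but none reached chow. The fibrinogen genes Fgb (-0.66, SE 0.11) and Fgg (-0.60, SE 0.10) were partly moved back. Of 17 periportal and urea cycle genes 10 were lower and 1, Aldh1b1, higher (median -0.46), with Nags, the activator-forming enzyme of the urea cycle, at -0.64 (SE 0.09), the ornithine carrier gene Slc25a15 at -0.61 (SE 0.10) and the histidase gene Hal at -1.22 (SE 0.21). Of 18 pericentral genes 9 were lower (median -0.33), with the WNT target Lgr5 at -1.39 (SE 0.18). The 2 higher ones were the carrier genes Slc13a3 (1.52, SE 0.15) and Slc1a2 (0.58, SE 0.18). Of 25 bile acid and xenobiotic genes 11 were lower (median -0.50) and 2 higher, the transporter genes Abcc4 (1.01, SE 0.38) and Abcb4 (0.48, SE 0.10). Abcc4 was not called in 6 of 25 alternatives, among them those without chow replicate 1, 2 or 5 or gRNA replicate 4 or 7, which left 1. Cyp27a1, a sterol hydroxylase of bile acid synthesis that is also on the pericentral list, was retained (-0.68, SE 0.10). Abcb11, the bile salt export pump, was at 842 ± 83.4 CPM in chow and 481 ± 135 CPM in gRNA (-0.81, SE 0.15). Of 23 acute phase genes 3 were higher (Orm3, Hpx and Lcn2), 6 lower and 14 not called, with Orm1 new and lower (567 ± 67.6 against 380 ± 23.3 CPM, -0.58, SE 0.08) and Itih3 moved further (-1.07, SE 0.15). Over all genes tested 20.9% were higher and 21.7% lower, so these counts do not set the acute phase list apart as lower. Without chow replicate 4 the count of higher acute phase genes was 6.

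Male-biased liver genes, which depend on the male pattern of growth hormone, had the lowest median against chow after cholesterol synthesis, of the lists with at least 5 tested genes. Of 19 tested genes 12 were lower and none higher, with a median of -1.41 (-2.30 for the diet alone). The gRNA libraries were widely spread. Hsd3b5, a male-specific steroid dehydrogenase gene, held 277, 190, 214, 233 and 238 CPM in chow, 0.0515 to 7.38 CPM in HFHF control and 0.129 to 112 CPM in gRNA (median 9.81). All gRNA libraries lay below chow (-2.94, SE 0.96, adjusted p = 0.0199), and their range overlapped that of HFHF control and reached above it. Mup11, a major urinary protein gene, was at 544 ± 317 CPM in chow and 68.6 ± 64.0 CPM in gRNA (-2.99, SE 0.72). Mup7 held 5192 to 11772 CPM in chow, 12.3 to 998 CPM in HFHF control and 38.8 to 5760 CPM in gRNA (median 1143). It was not called against chow (-2.05, 95% interval -4.24 to 0.14), an interval that still allows a large deficit. Mup19 (-2.24) and Mup16 (-1.50) were likewise not called. Major urinary protein genes are near-identical copies, so their reads may be split between them. Cyp7b1 was retained at 81.9 ± 50.8 CPM against 369 ± 118 CPM (-2.17, SE 0.40). Nudt7, a peroxisomal hydrolase gene (-0.97, SE 0.19), and the complement gene C8a (-1.11, SE 0.26) were lower as well. Of 10 female-biased genes 4 were higher and none lower (median 1.56), namely Cyp2b13 (3.54, SE 1.08), Abcd2 (2.30, SE 0.44), Acot3 (1.47, SE 0.52) and Fmo2 (1.06, SE 0.28). Of 21 growth hormone, IGF1 and hepatokine genes 4 were higher and 7 lower. Among all genes tested 20.9% were higher and 21.7% lower, so the count of higher ones does not set this list apart. The higher ones were Fgf21, partly moved back (2.83, SE 0.41), Igfbp3 (0.84, SE 0.16) and Angptl6 (0.48, SE 0.16), beside 1 other, and 2 of the 4 were called without chow replicate 5. Among the lower ones was Igfals, the IGF carrier subunit gene (-0.57, SE 0.11).

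Clock genes also stayed apart from chow. Of 18 tested 7 were higher, 5 lower and 6 not called, and 8 were retained. Dbp, an output gene of the clock, held 0.311 to 4.04 CPM in chow, 6.03 to 51.8 CPM in HFHF control and 10.6 to 64.9 CPM in gRNA (4.34, SE 0.73). Bhlhe41, a repressor of the clock, had moved further (3.67, SE 0.48). Clock fell from 88.1 ± 3.37 to 51.7 ± 8.21 CPM (-0.77, SE 0.10), and the other lower ones were Npas2 (-2.88, SE 0.54), Arntl (-1.94, SE 0.36), Nfil3 (-1.46, SE 0.26) and Cry1 (-1.23, SE 0.31). The time of day at which tissue was taken is not in the labels used here, and its part in these differences was not tested.

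Most markers of other cells were not called. The share higher over all genes tested was 20.9%, so the counts of higher endothelial and cholangiocyte markers do not set those lists apart. Of 13 sinusoidal endothelial markers 2 were higher, Lyve1 (0.89, SE 0.31) and the new gene Stab2 (0.74, SE 0.11). Lyve1 was not called in 5 of 25 alternatives, those without chow replicate 2 or 3 or gRNA replicate 4 or 7 and that with the gRNA and chow libraries alone, which left 1. Of 10 cholangiocyte markers 2 were higher, Spp1 (1.01, SE 0.30) and Cd24a (0.79, SE 0.25), and 1 was lower, a call lost in 17 of 25 alternatives. Spp1 is also on the list of lipid-associated and monocyte-derived macrophage markers. Of 5 tested adipocyte markers 3 were higher: Cfd (adipsin), which rose from 0.163 ± 0.103 CPM in chow to 14.5 ± 9.42 CPM (6.43, SE 0.88), Cidea and Fabp4 (1.03, SE 0.21). The defining adipocyte genes Adipoq and Lep were not among those tested, and no untested marker of that list exceeded 0.135 CPM in any library. The 1 tested pancreas marker, Cela1, fell by 2.09 (SE 0.18), and of 5 erythroid genes 1, Alas2, was lower (-0.61, SE 0.12).

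**Figure D5:**
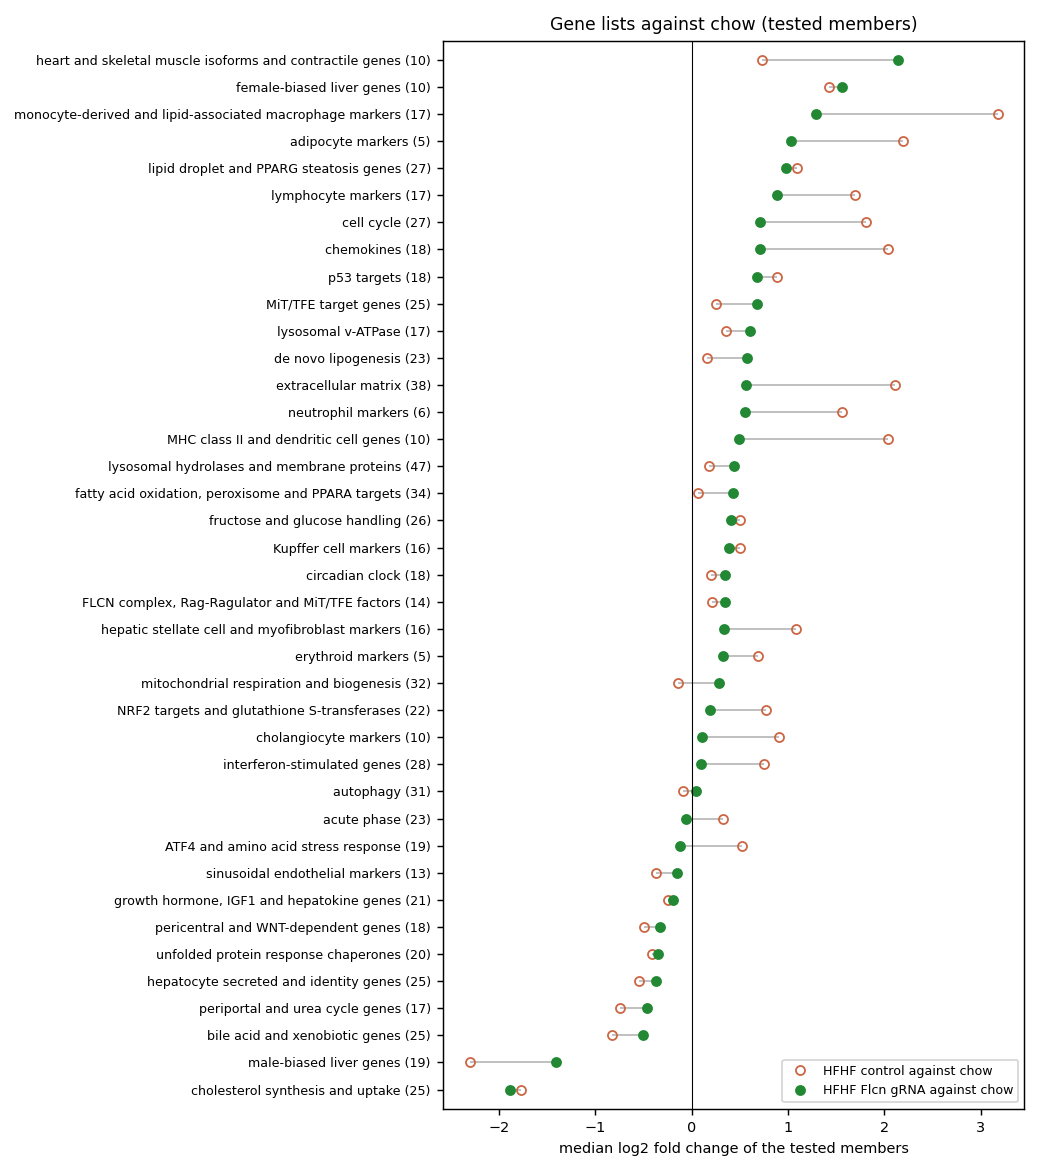
Median log2 fold change against chow of the tested members of each gene list with at least 5 tested members (number in brackets), for HFHF control (open) and gRNA (filled). Cholesterol synthesis and lipid droplet lists lie near the diet value, and matrix, macrophage and MHC class II lists lie nearer to 0. The lysosomal, v-ATPase and mitochondrial lists lie further to the right than under diet. The muscle isoform list does too, but its median covers 10 of 26 members. Of these 10, Fabp3, Cox8b and Ucp3 lay near 0 in chow and HFHF control and passed the low-count filter through the gRNA libraries. The shift of that list is thus partly set by the filter.

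Genes that had moved past chow were few, and their number depended on the settings. Of the 84, 67 were higher than chow and 17 lower. Without the filter on low counts the number was 51, and it was 52 without chow replicate 2 and 52 without chow replicate 4. Dennd3, a regulator of Rab GTPases, held 3.18 to 5.24 CPM in chow, 2.07 to 3.33 CPM in HFHF control and 7.2 to 12.4 CPM in gRNA (1.23, SE 0.16, adjusted p = 2.34e-06). Aqp4, a water channel gene, was at 6.91 ± 2.47 CPM in chow, 3.46 ± 1.33 CPM in HFHF control and 14.1 ± 2.80 CPM in gRNA (1.02, SE 0.24). Of the genes below chow 1 met the naming rule, Esyt2, which tethers the endoplasmic reticulum to the plasma membrane, at -0.27 (SE 0.07). Dgat2, the last enzyme of triglyceride synthesis, was lowered by diet (202 ± 25.4 CPM against 265 ± 31.4 CPM in chow) and raised with the gRNA to 364 ± 45.5 CPM (0.46 against chow, SE 0.10).

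Of the 2174 genes no longer called against chow, those with the largest diet rises were Mmp13, Tubb2b and Cyp2a4. Mmp13, a collagenase gene, held 0 to 0.0778 CPM in chow, 1.71 to 6.65 CPM in HFHF control and 0 to 0.679 CPM in gRNA (1.65, 95% interval -0.25 to 3.55). Tubb2b, a tubulin gene, was at 0.122 ± 0.130, 6.58 ± 3.71 and 0.442 ± 0.274 CPM in the 3 groups in that order (1.84, 95% interval 0.02 to 3.66). Cyp2a4 reached 20.9 CPM in its highest gRNA library against 1.59 CPM in its highest chow library (2.47, 95% interval 0.27 to 4.66). These intervals reach well above 0, and no call is not evidence of the chow level. The median size of the log2 difference from chow over the class was 0.14. The keratin gene Krt8 had a narrow interval: it was at 168 ± 8.02 CPM in chow, 397 ± 54.1 CPM in HFHF control and 157 ± 20.1 CPM in gRNA (-0.09, 95% interval -0.29 to 0.10).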

How the data were processed

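Liver mRNA libraries were made with an mRNA kit (KAPA mRNA HyperPrep) and adapters with unique molecular identifiers, and sequenced single-end on an Illumina NovaSeq, per the labels' protocols. The values the authors deposited are expected counts per gene, which need not be whole (77.8% of values of at least 1 were), on build GRCm38 per the submitters' processing notes. Which aligner, counter and annotation were used, and whether strand or identifiers were, is not stated in any label or header. Without such use counting intervals are too narrow, and they cover counting error only. Of 32422 features, 32400 were genes and 22 construct sequences, which held 7.0 counts and were left out. Names came from GENCODE mouse release 21 (32248 genes matched, 152 did not, 82 share a symbol). The values of 1 column that matched no labelled sample were not used.

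Expected counts were rounded. edgeR 4.0.16 in R 4.3.3 kept 13667 genes (filterByExpr on the 3 groups), scaled by TMM and fitted all 20 libraries at once with a robust quasi-likelihood model (17 residual degrees of freedom, common biological coefficient of variation 0.164). The contrasts were gRNA against chow, HFHF control against chow and gRNA against HFHF control, with Benjamini-Hochberg adjustment over all genes and a threshold of 0.05. Fold changes are log2, with SE, values ± are SD over libraries, and intervals are 95%. The script was tested on simulated data. For genes with 0 to 3 counts in a group a bound against 3 counts, or a ratio with its exact Poisson interval, replaces the fitted value.

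The gene lists, classes and naming rule were chosen with earlier results of these data known. The rule names Flcn, then, in each class and direction, the largest changes against chow (4 retained, 4 partly moved back, 3 moved further, 4 new, 2 past chow) among genes with unique names, no overlap of gRNA and chow libraries and, in the group with the higher level, a mean log2 CPM of 2 or more. It also names the 3 largest diet changes each way that were no longer called, and up to 3 called members of smallest p from each list. Any other member of a list, and every promoter printed, was chosen after its values were seen, except where 5 or fewer called members are named. A few genes it selects, or that belong to such a count, are left out here. Alternatives were other scalings (DESeq2's size factors, upper quartile), no filter, DESeq2 1.42.0, gRNA and chow libraries alone, and leaving out each library in turn.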

Additional observations from a re-analysis of the deposited data

Results flagged for a closer look

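In 26 of 615 gene groups looked at (205 genes in 3 groups), 1 library stood far from the others of its group by Dixon's criterion, which chance meets in about 1 of 20 groups. All values here are CPM.

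Among chow libraries, replicate 1 was lowest for Mup19 (137) and Oasl1 (6.62) and highest for Fnip1 (54.3) and Serpina1a (4924). Replicate 3 was highest for Ids (20.3) and lowest for Mmp13 (0). Replicate 4 was highest for Cxcl1 (40.9), and replicate 5 for Clock (93.9), Bst2 (51) and Nudt7 (758).

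Among gRNA libraries, replicate 5 was highest for Idi1 (26.6) and Scarb2 (218), replicate 6 for Sptlc3 (33.1), and replicate 1 for Tfeb (5.17) but lowest for Mcm3 (2.92). Replicate 7 was lowest for Slc1a2 (216) and Igfals (24.3). Replicate 8, whose title carries another number, was lowest for Fn1 (672), Abcb4 (240) and Cela1 (2.6).

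Among HFHF control libraries, replicate 2 was highest for Mup7 (998) and lowest for Dennd3 (2.07), and replicate 5 was lowest for Trem2 (2.29) and highest for Acot3 (6.53). Replicate 7 was highest for Rian (0.928) and replicate 1 lowest for Alas2 (36.3).

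Outside the gene counts, the construct features of the deposited table held 5.0 counts over all gRNA libraries. They held 2.0 over the HFHF control libraries, which were given no virus, and 0.0 over the chow libraries.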

How the results depend on the processing

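The number of genes called against chow was 5819, and ranged from 5152 to 5921 when 1 library was left out. It was 5458 without the low-count filter and 5893 with DESeq2, and calls of at least 2-fold, retained, partly moved back, moved further, new and no longer called genes stayed within 1.5 times their number in every alternative run. The exception was genes past chow, 84 in all, which were 51 without the filter and 52 to 91 when 1 library was left out. Flcn kept its direction against chow but missed the threshold with DESeq2's size factors in edgeR (-0.32), upper-quartile scaling (-0.29), no filter (-0.29), DESeq2 (-0.32) and the gRNA and chow libraries alone (-0.31). Leaving out 1 library moved it between -0.38 and -0.12. The cause was not tested. Over 5121 pairs of a gene (205 from the text or the naming rule) and an alternative, 4889 kept their direction and their side of the threshold, 221 lost the call, 11 gained it and 0 reversed. Scaling moved the median of all genes by 0.04 at most. No paired analysis was possible because the replicate numbers only follow the order of the accessions. Depth limits what can be said of genes near 0 in chow, such as Fabp3 and Sptlc3.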
